A study of Mus musculus with 36 samples.

Results

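The colon and the ileum of the mouse were compared across the whole transcriptome on 18 of the 36 microarrays of a survey of the intestine. These were all arrays of the colon samples 1 to 3 and the ileum samples 1 to 3. Each RNA sample had been hybridised to 3 Affymetrix mouse arrays of different content, array sets A, B and C, so the comparison rests on 3 colon and 3 ileum samples. The other 18 arrays held the duodenum and the jejunum and served here to estimate the spread between samples.

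The mice were of the outbred stock Hsd:ICR(CD-1), all males aged 8 weeks that ate a standard chow ad libitum, and no genotype or treatment differed between the groups. Each sample was total RNA from the whole segment pooled over 10 mice, so all layers of the wall were included with the epithelium. The ileum was the stretch of small intestine before the ileo-ceco-colic junction. The colon was taken as 1 piece, with proximal and distal parts together. A pool averages over its mice, so the spread between 3 pools is smaller than the spread between single mice would be.

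The ileum is the last part of the small intestine. Its villi carry absorptive enterocytes with a tall brush border of hydrolases and carriers, it recovers bile acids and cobalamin, and its crypts hold Paneth cells that release antimicrobial peptides. The colon has no villi and normally no Paneth cells. Its surface cells take up sodium, water and short-chain fatty acids from a dense bacterial content and secrete bicarbonate, and its many goblet cells build a thick mucus layer.

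Values are the deposited array intensities, scaled so that the trimmed mean of each array lay between 200.047 and 200.148 units. Log2 differences were taken on log2(intensity + 16), colon minus ileum, and understate the change of dim probe sets. A probe set was called where limma's moderated test gave a Benjamini-Hochberg adjusted p below 0.05 over the 36701 probe sets of the 3 array sets together. All p-values below are adjusted, 2-sided values of this kind. For each of 15964 genes 1 probe set was used, and intensities of different probe sets were not compared with each other.

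Within a segment the arrays correlated at 0.932 to 0.97 (Pearson's r across probe sets, set A, on the log2 scale), and colon with ileum at 0.876 to 0.922. The 18S ribosomal RNA control signal was low in ileum 1 and ileum 3 on all 3 array sets and high in ileum 2 and every colon sample. On set A it ran from 93.6 to 2028 units in the ileum and from 1407 to 5092 units in the colon. The ratio of the 3' to the 5' actin control, a sign of RNA quality or labelling, was 1.14 to 1.20 in the ileum and 1.30 to 1.43 in the colon on set A, so this ratio and the segment cannot be told apart. In 2 alternative fits the 18S class, high or low, entered as a block, or only high-18S samples were kept. Their adjusted p-values stand beside the calls that they ended. The fit with high-18S samples only kept ileum 2 alone on the ileum side, so its p-values rest on no spread between ileum pools. No colon sample was in the low class, which limits the block as well.

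The labels were set beside defining genes, which were chosen with earlier results of these data known, so this is no independent check. Of 9 ileum markers 7 were lower in the colon: Fabp6, Fgf15, Slc51a, Slc51b, Cubn, Lyz1 and Mmp7. Of 11 colon markers 7 were higher in the colon: Car1, Car4, Aqp8, Hoxb13, Insl5, Retnlb and Cyp2c55. The remaining markers were not called and most were dim. Slc26a3, a chloride-bicarbonate exchanger of the colonic surface, read 9.73 units in the colon and 27.2 in the ileum, and Hoxd13 read 7.3 and 9.07 units. The ileal bile acid carrier Slc10a2 read 19.8 and 51.3 units (adjusted p = 0.192), and Defa24 20.5 and 30.1 units. Among 6 small intestine markers, 5 were lower in the colon, and Sis, described below, was not called. None of 5 stomach and pancreas markers was called, with summed levels of 145 to 431 units in the colon pools and 189 to 247 in the ileum pools.

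Between ileum and colon, 830 of 15964 genes (5.2%) were called, 394 of them higher in the colon (2.47%) and 436 lower (2.73%). On the level of probe sets, 1202 of 36701 (3.28%) were called, 570 higher (1.55%) and 632 lower (1.72%). The called differences were large: 313 of the higher and 344 of the lower genes changed at least 2-fold, 105 and 139 at least 4-fold, and 15 and 27 at least 16-fold. The median difference over all genes was 0.03. All 394 higher genes and 435 of the 436 lower genes had colon and ileum values that did not overlap, against 23.6% of all genes. The call itself favours such separated values, so this share is no separate check of the calls. Of the called genes, 411 had more than 1 probe set; another probe set was called the same way for 100 of them and the other way for 0. A middle probe set gave a difference of the opposite sign, without a call, for 17 called list members or named genes: Aqp1, Arg2, Car3, Cubn, Enpep, Fabp1, Lgals3, Lyz1, Lyz2, Mgst3, Ndufs3, Oat, Psmb8, Retn, Sult1a1, Tpm1 and Wfdc2. With the sign kept, either middle probe set ended the calls of Cald1, Chgb, Cx3cl1, Fth1, Galnt10, Gda, Gfap, Gstm1, Gstm2, H2-Aa and H2-D1. The same held for Lrp6, Mylk, Penk, Sct, Slc5a12, St6gal1, Synm, Tap1, Tcn2, Thra and Zap70. Further calls were lost with only the lower or only the upper middle probe set, among them Fabp6, Acta2, Actg2, Hsd11b2, Hao2, Tfcp2l1, Sqor and Tst. Set A gave most calls (6.14% of its probe sets, against 2.89% on B and 0.674% on C). Leaving out any 1 pool lowered the higher probe sets from 570, to between 366 (without colon 3) and 453 (without ileum 3). In whole tissue, fewer cells of a type and less RNA per cell cannot be told apart, and this applies to every gene below.

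**Figure D1:**
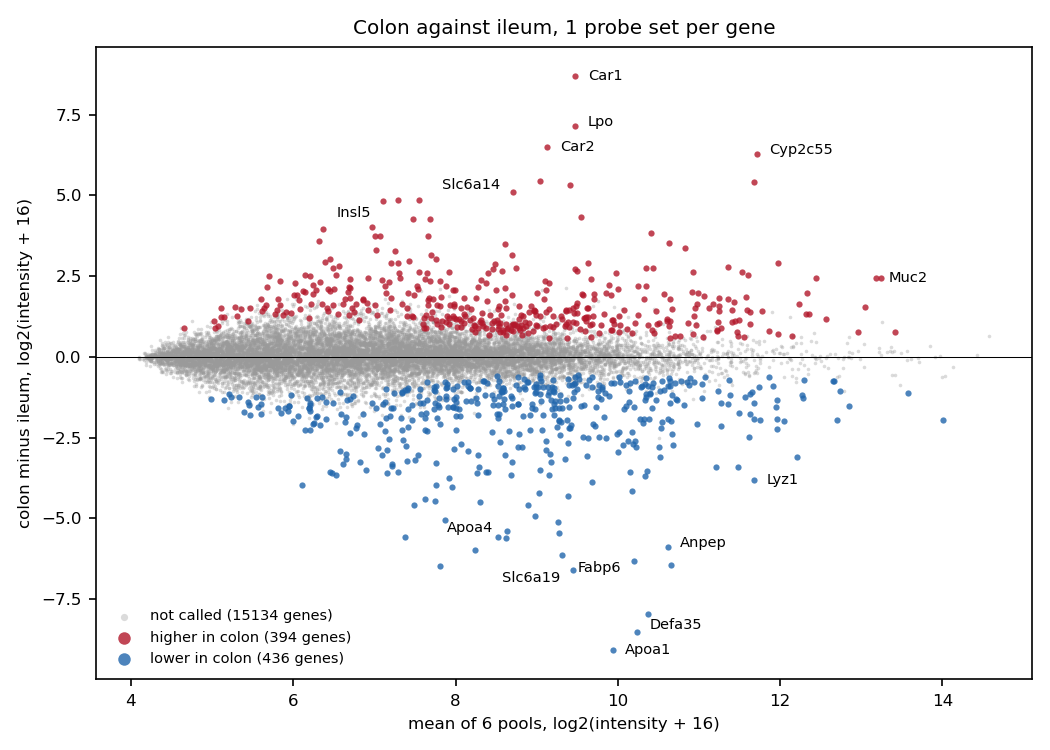
Each point is 1 gene: the mean of the 6 pools on the x axis and the colon minus ileum difference on the y axis, both on log2(intensity + 16), with 394 genes higher in the colon in red, 436 lower in blue and the genes that were not called in grey. The differences run from -9.08 (Apoa1) to 8.70 (Car1), and called genes lie across most of the intensity range.

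Rises and falls were ranked only among called genes whose colon and ileum pools did not overlap, so separated pools were required by the ranking. The highest rise belonged to Car1, a cytosolic carbonic anhydrase that turns carbon dioxide and water into bicarbonate. It read 12552, 17370 and 14029 units in the colon pools and 12.4, 25.1 and 20.3 units in the ileum pools. The lowest colon pool lay far above the highest ileum pool, and the difference was 8.70 ± 0.32 (SE), adjusted p = 1.26e-10. Car2, the second cytosolic carbonic anhydrase, read 5007, 5300.5 and 5674 units in the colon pools and 54.5, 45.8 and 30.9 units in the ileum pools (6.50 ± 0.23 (SE), adjusted p = 6.53e-11). Lactoperoxidase, Lpo, a secreted peroxidase that makes antibacterial oxidants, read 7849, 9277 and 8199.5 units in the colon pools and 27.9, 71.4 and 40.7 units in the ileum pools (7.13 ± 0.51 (SE), adjusted p = 1.97e-07). Cyp2c55, a cytochrome P450 of the arachidonic acid-metabolising 2C family, read 20013, 29068 and 44012 units in the colon pools and 411, 148 and 786 units in the ileum pools. Its pools varied more, more so in the ileum than in the colon, and did not overlap (6.27 ± 0.53 (SE), adjusted p = 5.78e-06).

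The other 11 of the 15 largest rises of named genes spanned metabolism, transport and secretion. Unnamed transcripts were left out of this ranking; 2 of them, 1810065E05Rik and 2610528A11Rik, rose by more than Slc6a14, below, did. Sptssb, a small subunit of serine palmitoyltransferase, the first enzyme of sphingolipid synthesis, was higher by 5.46 (adjusted p = 8.73e-08). Slc6a14, a broad carrier of neutral and cationic amino acids, read 1961, 2302 and 3247 units in the colon pools and 128, 3.1 and 114 units in the ileum pools. The ileum pools were uneven, with ileum 2 near 0, and all stayed far under the colon pools (5.11 ± 0.61 (SE), adjusted p = 5.55e-05). Sycn, a zymogen granule protein of the pancreas, read 1034 ± 379.8 units in the colon and 19.9 ± 11.5 in the ileum (SD, n = 3; adjusted p = 6.48e-08), and also 1634 ± 333 in the duodenum. Ccn3, a secreted matrix-associated protein, rose by 4.85 and Plet1, a cell surface protein of epithelial progenitors, by 4.33. Hao2, a peroxisomal hydroxy acid oxidase, rose by 4.28, and Wfdc2, a secreted protease inhibitor of the whey acidic protein family, by 4.01. Selenbp1, a methanethiol oxidase, read 4563, 5110.2 and 5813 units in the colon pools and 329.8, 312 and 388 units in the ileum pools, with close values within each segment (3.85 ± 0.15 (SE), adjusted p = 2.22e-10). Insl5 and Aqp8 are described with the hormones and the water channels, and Cyp2d10 with the P450 enzymes.

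**Figure D2:**
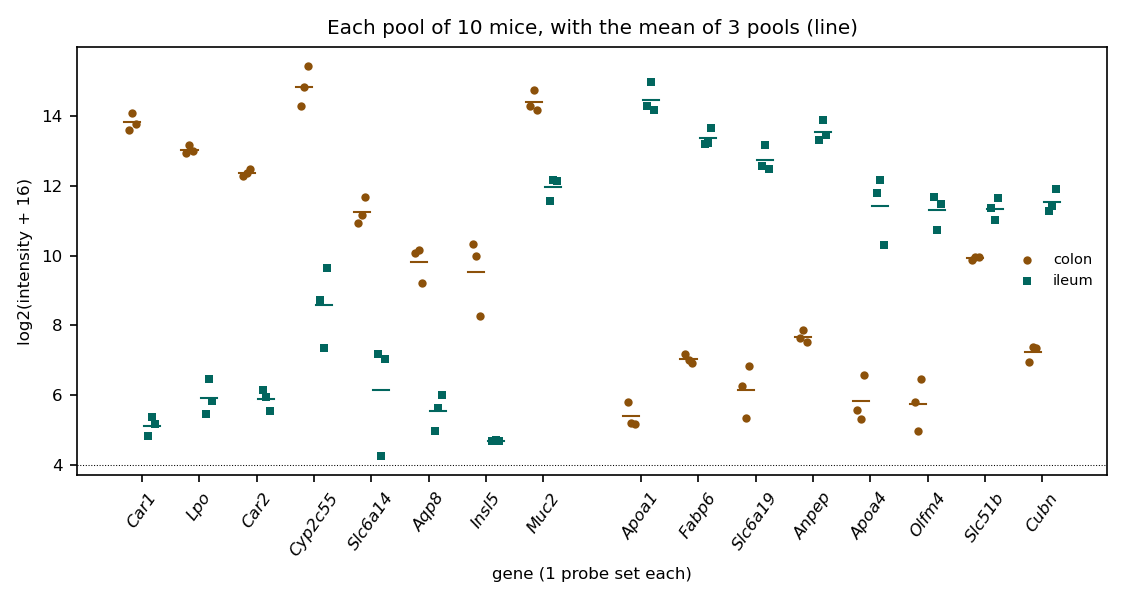
Each pool of 10 mice as a point, on log2(intensity + 16), for 8 genes higher in the colon (left) and 8 lower (right); circles are colon, squares ileum, short lines the mean of 3 pools, and the dotted line is an intensity of 0. The 16 genes were picked from the called genes, nearly all of which have colon and ileum pools that do not overlap, as is so here. Apoa1 in the colon and Car1 in the ileum lie close to the dotted line.

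The largest fall was that of Apoa1, the main protein of high-density lipoprotein, made by enterocytes and liver. It read 39.9, 20.6 and 20.3 units in the colon pools and 20018, 32138 and 18383 units in the ileum pools, so that the colon pools lay near the bottom of the array's range and the ileum pools near its top (-9.08 ± 0.26 (SE), adjusted p = 6.69e-12). Fabp6, the cytosolic bile acid-binding protein of ileal enterocytes, read 129.8, 113 and 104 units in the colon pools and 9403, 9622 and 12968 units in the ileum pools (-6.33 ± 0.29 (SE), adjusted p = 1.46e-09); the jejunum read 49.2 ± 10.1 units. Slc6a19, the main neutral amino acid carrier of the brush border, read 60.0, 24.7 and 98.4 units in the colon pools and 6092, 9249 and 5693 units in the ileum pools (-6.60 ± 0.33 (SE), adjusted p = 1.99e-09). Anpep, aminopeptidase N, read 183, 217 and 166 units in the colon pools and 10266, 15154 and 11203 units in the ileum pools (-5.89 ± 0.17 (SE), adjusted p = 6.69e-12). In none of these did a colon pool come near an ileum pool, and the ranking took only genes whose pools did not overlap. Tm4sf5, a membrane protein of the L6 tetraspan family, read 5.9, 12.1 and 5.9 units in the colon pools and 2245, 2523 and 1658 units in the ileum pools (-6.48 ± 0.20 (SE), adjusted p = 1.26e-11). Pdzk1, a scaffold that holds carriers at the brush border, read 19.1, 2.1 and 5.5 units in the colon pools and 1294, 856 and 1316 units in the ileum pools (-5.59 ± 0.26 (SE), adjusted p = 2.10e-09). Every colon pool of both lay far below every ileum pool.

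Promoter windows from RefSeq are shown for 5 genes named among the largest differences, 3 lower and 2 higher in the colon, so that their sequence can be read beside their values. Each is the 250 bases before the annotated start on GRCm38.p6, 5′ to 3′ on the gene's strand. Capitals mark exact matches, on either strand, to CAAAGT (a core of sites of the enterocyte factors HNF4), AGATAA (read by factors of the GATA family), TTTATG (read by CDX factors) or GTTAAT (read by HNF1).
Apoa1 (chr9:46228380-46228629, plus strand): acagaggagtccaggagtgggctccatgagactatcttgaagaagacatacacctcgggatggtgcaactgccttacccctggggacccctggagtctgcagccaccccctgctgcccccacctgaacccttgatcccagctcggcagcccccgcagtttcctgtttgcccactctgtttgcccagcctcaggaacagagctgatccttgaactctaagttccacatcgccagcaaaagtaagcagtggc
Apoa4 (chr9:46240594-46240843, plus strand): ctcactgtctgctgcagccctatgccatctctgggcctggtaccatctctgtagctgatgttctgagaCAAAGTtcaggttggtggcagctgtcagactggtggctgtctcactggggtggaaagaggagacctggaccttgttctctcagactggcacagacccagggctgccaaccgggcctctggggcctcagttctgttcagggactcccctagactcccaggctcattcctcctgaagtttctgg
Fabp6 (chr11:43601563-43601812, minus strand): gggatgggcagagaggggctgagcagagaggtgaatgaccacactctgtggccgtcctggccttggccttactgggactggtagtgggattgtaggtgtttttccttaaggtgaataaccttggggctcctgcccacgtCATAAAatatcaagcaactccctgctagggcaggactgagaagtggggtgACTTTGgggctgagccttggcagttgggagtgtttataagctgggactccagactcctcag
Lpo (chr11:87826115-87826364, minus strand): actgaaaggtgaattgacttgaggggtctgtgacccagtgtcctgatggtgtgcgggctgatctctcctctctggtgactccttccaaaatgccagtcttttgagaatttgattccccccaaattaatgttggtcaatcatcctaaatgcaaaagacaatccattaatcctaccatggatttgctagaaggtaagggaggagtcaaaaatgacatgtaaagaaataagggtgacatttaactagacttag
Cyp2c55 (chr19:39006769-39007018, plus strand): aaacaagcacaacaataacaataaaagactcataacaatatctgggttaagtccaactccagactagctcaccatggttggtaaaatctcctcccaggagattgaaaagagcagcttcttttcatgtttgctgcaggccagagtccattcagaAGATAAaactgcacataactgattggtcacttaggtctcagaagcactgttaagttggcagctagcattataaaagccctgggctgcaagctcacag
The Fabp6 window held an HNF4 match (ACTTTG) that began 61 bases before the start and a CDX match (CATAAA) that began 111 bases before it. The Apoa4 window held an HNF4 match 182 bases before the start and the Cyp2c55 window a GATA match 97 bases before it; no matches shared bases. Of all 32851 promoter windows of this length, 12.6% held CAAAGT, 9.99% AGATAA, 10.8% TTTATG and 6.43% GTTAAT. The 435 windows of the genes lower in the colon (327 of 436 genes had an entry) held them in 16.6%, 10.1%, 8.28% and 6.9%. The 412 windows of the genes higher in the colon (306 of 394 genes) held them in 12.1%, 7.77%, 9.71% and 6.8%. A match of 6 letters describes the sequence and is not a bound site, and no test was made of these shares.

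Of 22 measured genes of fat absorption, 15 were lower in the colon, 0 higher and 7 not called. The share called was 68.2% against 5.2% of all genes, and the median difference was -2.55 against 0.03 over all genes. Apoa4, a chylomicron apolipoprotein, read 31.3, 23.9 and 79.0 units in the colon pools and 3562, 4631 and 1250 units in the ileum pools; ileum 3 was the lowest ileum pool and lay far above the highest colon pool (-5.61 ± 0.40 (SE), adjusted p = 3.39e-07). Mttp, which loads lipid onto apolipoprotein B, read 1.1, 1.8 and 1.3 units in the colon pools and 347, 208 and 232 units in the ileum pools (-3.97 ± 0.25 (SE), adjusted p = 8.98e-08). Mogat2 and Dgat1, which rebuild triglyceride in the enterocyte, fell, with differences of -3.40 and -2.94 (adjusted p = 1.97e-07 and 2.29e-07). The sterol exporters Abcg5 and Abcg8 fell, with differences of -4.20 and -3.59, the retinol-binding protein Rbp2 fell by 2.90 and apolipoprotein B itself fell by 2.58. Apoc2, Acsl5, Slc27a4 and Pla2g12b made up the 15, with differences of -2.62, -2.52, -1.82 and -1.61. Fabp2, the intestinal fatty acid-binding protein, read 1663 ± 146 units in the colon against 6372 ± 75.4 in the ileum (SD, n = 3; -1.93 ± 0.23 (SE), adjusted p = 6.97e-05). Fabp1 was uneven in the ileum, at 786, 505 and 68.0 units, and read 11.4, 9 and 10.1 units in the colon (-3.65 ± 0.57 (SE), adjusted p = 0.00111). Scarb1, Plin2, Apoe and Cd36 were not called; Apoe read 1416 units in the colon and 1904 in the ileum. The count of 15 held without each of the 6 pools and with a block for the 18S class.

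Digestive enzymes of the brush border followed the same direction: 8 of 14 were lower and 0 higher (57.1% called, against 5.2% of all genes). The median was -2.05. Enpep, aminopeptidase A, read 254, 206 and 320.0 units in the colon pools and 4023, 5477 and 5178 units in the ileum pools (-4.16 ± 0.21 (SE), adjusted p = 6.31e-09). Treh, trehalase, and Lct, lactase, fell, with differences of -4.39 and -4.46, Mgam, maltase-glucoamylase, fell by 3.09, Ace, the angiotensin-converting dipeptidase, fell by 3.21 and the meprin subunit Mep1b fell by 2.19. Intestinal alkaline phosphatase, Alpi, read 2068 ± 321 units in the colon and 7762 ± 748 in the ileum (SD, n = 3; -1.91 ± 0.20 (SE), adjusted p = 1.40e-05). Sis, sucrase-isomaltase, is a defining enzyme of the small intestine and 1 of the 6 that were not called. Its probe set was bright in both segments, 3032, 3009.7 and 2489.9 units in the colon pools and 3193, 2247 and 3028 units in the ileum pools, and the pools overlapped (0.02 ± 0.38 (SE), adjusted p = 0.995), which goes against its use as a marker here.

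Carriers of amino acids and sugars were lower in 11 of 17 cases and higher in 2 (76.5% called, against 5.2% of all genes, median -1.91). The cystine carrier Slc7a9 read 209, 225 and 167 units in the colon pools and 2857, 3083 and 3435 units in the ileum pools (-3.86 ± 0.17 (SE), adjusted p = 1.39e-09), its partner Slc3a1 fell by 1.31, and Slc6a20a, a proline carrier, fell by 5.98. The basolateral carriers Slc7a7, Slc7a8 and Slc43a2 fell, with differences of -3.65, -3.56 and -3.68. Slc3a2, the chain shared by several such carriers, and the glutamate carrier Slc1a1 fell, with differences of -1.91 and -2.30; with high-18S samples only, Slc1a1 was at adjusted p = 0.0554. Slc5a1, the sodium-glucose cotransporter, read 449 ± 54.9 units in the colon and 2289 ± 178 in the ileum (SD, n = 3; -2.31 ± 0.17 (SE), adjusted p = 4.16e-07). The 2 carriers that rose were Slc6a14, above, and Slc2a1, the widespread glucose carrier GLUT1, which read 379, 431 and 371 units in the colon pools and 26.0, 11.6 and 43.3 units in the ileum pools (3.32 ± 0.38 (SE), adjusted p = 5.82e-05). The glucose carrier of the basolateral membrane, Slc2a2, fell by 1.84, and the fructose carrier Slc2a5 was not called (57.3 and 140.1 units, adjusted p = 0.0571).

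Of 10 bile acid genes, 4 were lower, 1 was higher and the median was -0.87. Beside Fabp6, the basolateral exporter subunits Slc51a and Slc51b fell: Slc51a read 1231, 1276 and 1448 units in the colon pools and 6468, 8104 and 7687 units in the ileum pools (-2.48 ± 0.16 (SE), adjusted p = 8.95e-08), Slc51b 917, 987 and 988 units in the colon pools and 2617, 2067 and 3231 units in the ileum pools (-1.41 ± 0.25 (SE), adjusted p = 0.00249). When only high-18S samples were kept, Slc51b missed the threshold (adjusted p = 0.0753) and the lower count was 3. Fgf15, the ileal hormone that restrains bile acid synthesis in the liver, read 15.5, 26.5 and 16.7 units in the colon pools and 364, 132 and 397 units in the ileum pools (-3.02 ± 0.37 (SE), adjusted p = 0.000115). Abcc3, an exporter of bile acid and other conjugates, was higher in the colon: 2674, 3197 and 2996 units in the colon pools and 878, 759.8 and 889 units in the ileum pools (1.79 ± 0.21 (SE), adjusted p = 6.13e-05). The bile acid receptor Nr1h4 was not called, at 282 and 365 units (adjusted p = 0.545).

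Among 20 carriers of organic acids and vitamins, 6 were lower and 0 higher (30.0% called, against 5.2% of all genes, median -0.60). Cubn and Amn, the 2 parts of the receptor for cobalamin bound to intrinsic factor, fell, with differences of -4.30 and -1.73, and Tcn2, which carries cobalamin in blood, fell by 2.05. Cubn read 108, 152 and 146 units in the colon pools and 2494, 2706 and 3809.8 units in the ileum pools (-4.30 ± 0.44 (SE), adjusted p = 1.57e-05). The other 3 were the sulfate carrier Slc13a1 (-2.07), the biotin and pantothenate carrier Slc5a6 (-1.62) and the lactate carrier Slc5a12 (-2.27). Among high-18S samples alone, these 3 missed the threshold (adjusted p = 0.056, 0.0609 and 0.371). The call of Slc5a12 was lost without colon 2, colon 3, ileum 1 or ileum 3 (adjusted p up to 0.107). A block for the 18S class put Slc5a12 at adjusted p = 0.138. Slc5a8 and Slc16a1, carriers of short-chain fatty acids, were not called; Slc5a8 read 249 units in the colon and 214 in the ileum.

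**Figure D3:**
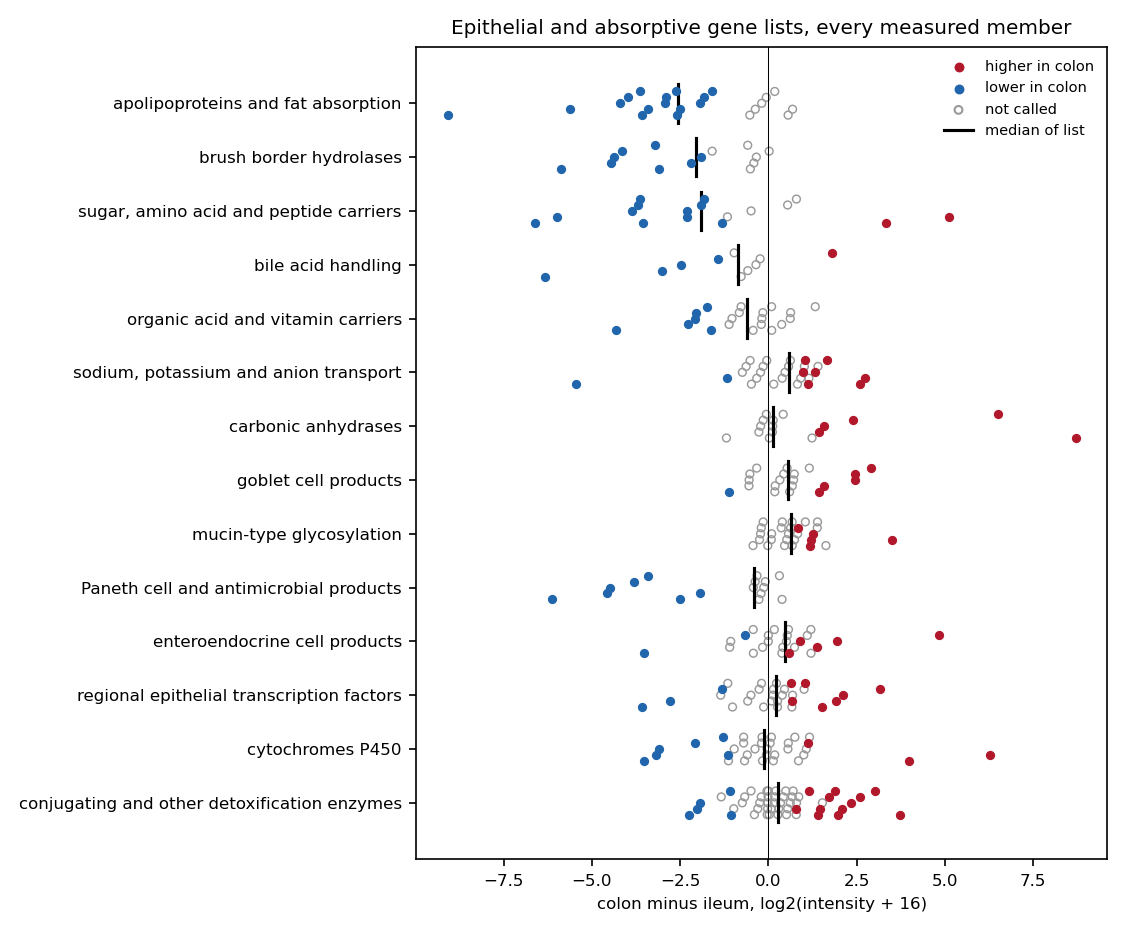
Every measured member of 14 gene lists as a point at its colon minus ileum difference on log2(intensity + 16), red where higher and blue where lower at adjusted p below 0.05, open where not called; black bars are list medians and the height within a row has no meaning. The fat, brush border and carrier lists lie mostly left of 0, while sodium and anion transport, carbonic anhydrases, mucins and glycosylation have their called members mostly right of 0.

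Salt transport was mostly higher where it was called. Of 27 genes of sodium, potassium and anion transport, 7 were higher and 2 lower (33.3% called, against 5.2% of all genes, median 0.57). Slc9a3, the apical sodium-hydrogen exchanger, read 3058, 4678 and 3131 units in the colon pools and 892, 410.4 and 378 units in the ileum pools (2.74 ± 0.37 (SE), adjusted p = 0.000229). Hsd11b2, which guards the mineralocorticoid receptor from glucocorticoids, rose by 2.59 (adjusted p = 0.0012), and the basolateral anion exchanger Slc4a2 by 0.97 (adjusted p = 0.00768). Slc26a6, an apical chloride-bicarbonate exchanger, fell from the ileum's 4255, 4116 and 3857 units to 79.3, 104 and 56.8 units in the colon pools (-5.44 ± 0.21 (SE), adjusted p = 8.80e-11). Slc9a3r1, a scaffold of the brush border, fell by 1.18. Slc12a2, the basolateral chloride loader, rose by 1.33, the sulfate carrier Slc26a2 by 1.65, Fxyd3 by 1.03 and the channel subunit Kcne3 by 1.11. Without colon 3 the count of 7 was 3. The call of Slc12a2 was lost without colon 3 (adjusted p = 0.0559), that of Slc26a2 without colon 2, colon 3, ileum 2 or ileum 3 (adjusted p up to 0.0833), that of Fxyd3 without colon 2, colon 3, ileum 1 or ileum 2 (adjusted p up to 0.133) and that of Kcne3 without colon 1, colon 2, colon 3 or ileum 2 (adjusted p up to 0.143). Restriction to high-18S samples put Fxyd3 at adjusted p = 0.177. The epithelial sodium channel was not called in any subunit: Scnn1a read 338 and 157 units, Scnn1b 84.7 and 49.8, and Scnn1g 127 and 111. Cftr read 373 and 206 units (adjusted p = 0.124).

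Of 16 carbonic anhydrases, 5 were higher and 0 lower (31.2% called, against 5.2% of all genes), with a median of 0.13. The other 11 members were not called. Car4, the membrane-bound enzyme, read 3677, 5450 and 3636 units in the colon pools and 1496, 1599.6 and 1145 units in the ileum pools (1.57 ± 0.29 (SE), adjusted p = 0.00462). Car3, abundant in muscle and fat, and Car8 rose by 2.39 and 1.43. The call of Car3 was lost without colon 1 or colon 3 (adjusted p up to 0.0712) and that of Car8 without colon 3 or ileum 2 (adjusted p up to 0.0832). Without colon 3, and with high-18S samples only, the count was 3; in the second case Car4 and Car8 missed the threshold (adjusted p = 0.0767 and 0.0809). The aquaporins divided: of 10, 2 were higher and 2 lower (40.0% called, against 5.2% of all genes). Aqp8, the water channel of the colonic surface, read 1059, 1121 and 578 units in the colon pools and 15.6, 34.0 and 48.7 units in the ileum pools (4.26 ± 0.37 (SE), adjusted p = 2.49e-06), with colon 3 the lowest of the colon pools. Aqp4 read 929, 751 and 548 units in the colon pools and 32.4, 36.7 and 49.1 units in the ileum pools (3.75 ± 0.31 (SE), adjusted p = 1.83e-06). Aqp11 and Aqp1 fell, with differences of -1.59 and -1.16; for Aqp1 the second probe set was not called, and with high-18S samples only its adjusted p was 0.0686.

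The guanylin pathway, in which 2 peptides act on the guanylate cyclase receptor Gucy2c to drive chloride and water secretion, had 1 of 5 members called. That is 20.0%, against 5.2% of all genes. Uroguanylin, Guca2b, read 580.3, 469 and 568 units in the colon pools and 3583, 4180 and 3741 units in the ileum pools (-2.80 ± 0.18 (SE), adjusted p = 7.99e-08) and every ileum pool lay far above every colon pool. Its receptor Gucy2c read 1674 ± 294 units in the colon and 1664 ± 81.8 in the ileum (SD, n = 3; adjusted p = 0.997). The probe set of guanylin, Guca2a, was dim at 7.43 units in the colon and 6.83 in the ileum and was not called. In the handling of iron, zinc and calcium, 2 of 18 genes were higher and 1 lower (16.7% called, against 5.2% of all genes). The iron exporter Slc40a1 read 1568, 1730.4 and 3095 units in the colon pools and 431, 276 and 636 units in the ileum pools (2.22 ± 0.32 (SE), adjusted p = 0.000379), and the zinc carrier Slc39a5 fell by 1.16. The ferritin chain Fth1 rose by 0.76 (adjusted p = 0.0466). The call of Fth1 was lost whichever pool was left out (adjusted p up to 0.174). It also missed the threshold with the 18S block (adjusted p = 0.197) and with high-18S samples only (0.151).

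Goblet cell products split. Of 20, 5 were higher and 1 lower in the colon (30.0% called, against 5.2% of all genes, median 0.57). Muc2, the gel-forming mucin of the intestine, read 19972, 27637 and 18511 units in the colon pools and 3036, 4608 and 4492 units in the ileum pools (2.44 ± 0.24 (SE), adjusted p = 6.89e-06), and Retnlb, a goblet cell protein that acts on bacteria, read 19440, 29517 and 20417 units in the colon pools and 4575, 3966 and 3934 units in the ileum pools (2.45 ± 0.19 (SE), adjusted p = 7.11e-07). Spdef, the transcription factor of goblet cell maturation, and Agr2, the disulfide isomerase needed to fold mucin, rose by 1.58 and 1.43 (adjusted p = 0.00203 and 0.00306). Tff3, the trefoil peptide of the same cells, went the other way, 8869.5, 8691 and 7373 units in the colon pools and 15231, 21716 and 17473 units in the ileum pools (-1.11 ± 0.18 (SE), adjusted p = 0.00194). Other goblet cell products were bright in both segments and not called: Zg16 read 9040.3 units in the colon and 13292 in the ileum, Fcgbp 9107 and 12984, and Clca1 16936 and 13315. The membrane mucin Muc4 rose by 2.91 (adjusted p = 0.0415). The call of Muc4 was lost whichever pool was left out (adjusted p up to 0.189). It was lost with the 18S block too (adjusted p = 0.0844), and with high-18S samples only (0.227).

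Enzymes that build mucin-type glycans were higher in 5 of 27 cases and lower in 0 (18.5% called, against 5.2% of all genes, median 0.63). St6galnac6, a sialyltransferase, read 1326, 1307 and 1278 units in the colon pools and 164, 53.8 and 108 units in the ileum pools (3.51 ± 0.33 (SE), adjusted p = 6.61e-06), with the colon pools close together and no overlap. Galnt10, an enzyme that starts the chains, rose by 1.22, and St6gal1 by 1.27, while B4galnt2 and Galnt4 rose by 0.83 and 1.18. The count was 2 without colon 1 or colon 3 and 3 with a block for the 18S class or with high-18S samples only. The call of B4galnt2 was lost without colon 1, colon 2, colon 3, ileum 1 or ileum 2 (adjusted p up to 0.108), that of Galnt4 without colon 1, colon 3, ileum 1 or ileum 2 (adjusted p up to 0.15) and that of St6gal1 without colon 1 or colon 3 (adjusted p up to 0.0803). The 18S block put B4galnt2 at adjusted p = 0.0677 and Galnt4 at 0.122, and restriction to high-18S samples put St6gal1 at adjusted p = 0.0557 and Galnt10 at 0.0612.

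Paneth cell and antimicrobial products were lower in 7 of 16 cases and higher in 0 (43.8% called, against 5.2% of all genes, median -0.40). The alpha-defensins, peptides of the Paneth cell granule that kill bacteria, showed falls among the largest on the arrays. Defa23 read 73.6, 72.2 and 60.7 units in the colon pools and 20910, 23862 and 18140 units in the ileum pools (-7.95 ± 0.17 (SE), adjusted p = 4.54e-13), Defa35 26.9, 40.3 and 89.1 units in the colon pools and 20275, 31294 and 19219 units in the ileum pools (-8.51 ± 0.28 (SE), adjusted p = 3.48e-11) and Defa26 146, 49.2 and 25.8 units in the colon pools and 4716, 4745 and 6668 units in the ileum pools (-6.13 ± 0.48 (SE), adjusted p = 2.69e-06). These genes are near-identical copies whose probe sets can read each other, so these values are uncertain for single members. Only Defa26 of the 3 was on the list. Defa24, also on the list, was dim in both segments and not called, so the 3 bright probe sets do not describe all alpha-defensins. Mmp7, the protease that activates them, has a sequence of its own and read 18.9, 11.4 and 36.1 units in the colon pools and 891, 969.5 and 732 units in the ileum pools (-4.57 ± 0.24 (SE), adjusted p = 1.29e-08). Lyz1, the Paneth cell lysozyme, read 704, 840.3 and 1068 units in the colon pools and 11536, 12371 and 12823 units in the ileum pools (-3.81 ± 0.28 (SE), adjusted p = 1.17e-06); its probe set may also read Lyz2, the lysozyme of macrophages, which fell by 2.50. Pla2g2a, an antibacterial phospholipase, was uneven in the colon, at 3258, 716 and 264 units against 11664, 10406 and 6584 in the ileum (-3.41 ± 0.60 (SE), adjusted p = 0.00342); with high-18S samples only, its adjusted p was 0.0943. Reg3a and Reg3g, lectins that bind bacteria, fell, with differences of -4.49 and -1.94 (adjusted p = 1.47e-07 and 0.0001), whereas Reg3b read 16109 and 20634 units and Reg4 2047 and 1636 units, not called. Reg genes are close relatives and their values are uncertain for the same reason. The count of 7 held without each pool.

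Of 24 enteroendocrine genes, 5 were higher and 2 lower (29.2% called, against 5.2% of all genes, median 0.46). Insl5, an insulin-family hormone of colonic L cells, read 1264, 1003 and 293 units in the colon pools and 9.7, 10.0 and 9.9 units in the ileum pools; colon 3 was the lowest colon pool and lay far above the ileum pools, which were all near the bottom of the range (4.84 ± 0.49 (SE), adjusted p = 1.00e-05). Gip, the incretin of upper intestinal K cells, read 21.4, 28.7 and 10.3 units in the colon pools and 478, 407 and 296 units in the ileum pools (-3.51 ± 0.22 (SE), adjusted p = 7.89e-08). Chgb, a granule protein of many endocrine cells, rose by 1.95 (adjusted p = 2.00e-05); the gene's other probe sets were not called. Pyy, a hormone of distal L cells, was bright and not called (2202 and 1516 units, adjusted p = 0.834). The processing enzyme Cpe, the granule protein Chga and somatostatin, Sst, rose by 1.38, 0.90 and 0.60, and secretin, Sct, fell by 0.67. The call of Cpe was lost without colon 1, colon 3 or ileum 2 (adjusted p up to 0.0707), that of Chga without colon 1, colon 2, colon 3, ileum 1 or ileum 3 (adjusted p up to 0.144), that of Sst whichever pool was left out (adjusted p up to 0.22) and that of Sct without colon 1, colon 2, ileum 1, ileum 2 or ileum 3 (adjusted p up to 0.144). Blocking on the 18S class left Chga at adjusted p = 0.185, Sct at 0.128 and Sst at 0.0634, and high-18S samples alone left Chga at adjusted p = 0.165, Sct at 0.111 and Sst at 0.0626. Without colon 1 or colon 3 the higher count was 2.

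Hox genes mark position along the body axis, with high-numbered genes expressed towards the tail end. Of 33 measured, 5 were higher and 0 lower in the colon, 15.2% against the 5.2% of all genes, with a median of 0.39. Hoxa7 read 270.0, 179.6 and 205 units in the colon pools and 10.6, 15.9 and 17.3 units in the ileum pools (2.92 ± 0.29 (SE), adjusted p = 1.05e-05). Hoxb13 read 553, 366 and 139 units in the colon pools and 44.1, 68.1 and 39.3 units in the ileum pools; colon 3 was again the lowest colon pool and lay above every ileum pool (2.30 ± 0.42 (SE), adjusted p = 0.00453). Hoxb6, Hoxb9 and Hoxa11 rose by 1.12, 1.37 and 1.51 (adjusted p = 0.0232, 0.0142 and 0.0205). The call of Hoxb6 was lost without colon 2, colon 3, ileum 1 or ileum 2 (adjusted p up to 0.143), that of Hoxb9 without colon 3 or ileum 3 (adjusted p up to 0.0757) and that of Hoxa11 without colon 2, colon 3, ileum 1 or ileum 2 (adjusted p up to 0.0992). Without colon 3 the count was 2. With a block for the 18S class these 3 also missed the threshold (adjusted p = 0.0737, 0.0888 and 0.0861), and with high-18S samples only Hoxa7 alone was called, with Hoxb13 at adjusted p = 0.164, Hoxb6 at 0.0826, Hoxb9 at 0.136 and Hoxa11 at 0.204. The other 28 were not called. Hoxc4, Hoxc6, Hoxc5, Hoxc8, Hoxc9 and Hoxc10 gave differences of -0.96, -0.96, -0.50, -0.48, -0.22 and -0.20. Among the Hoxd genes, Hoxd9, Hoxd11 and Hoxd8 gave 0.95, 0.89 and 0.81, and Hoxd12, Hoxd1, Hoxd10 and Hoxd13 gave -0.62, -0.39, -0.15 and -0.08. Hoxa10, Hoxa13, Hoxa5, Hoxa9, Hoxa2, Hoxa4, Hoxa6 and Hoxa3 gave 1.09, 0.98, 0.67, 0.45, 0.43, 0.39, 0.31 and -0.37. Hoxb5, Hoxb1, Hoxb8, Hoxb7, Hoxb3, Hoxb2 and Hoxb4 gave 0.79, 0.67, 0.40, 0.31, 0.30, 0.10 and 0.06. Of the 33 probe sets, 17 were under the array median in both segments.

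**Figure D4:**
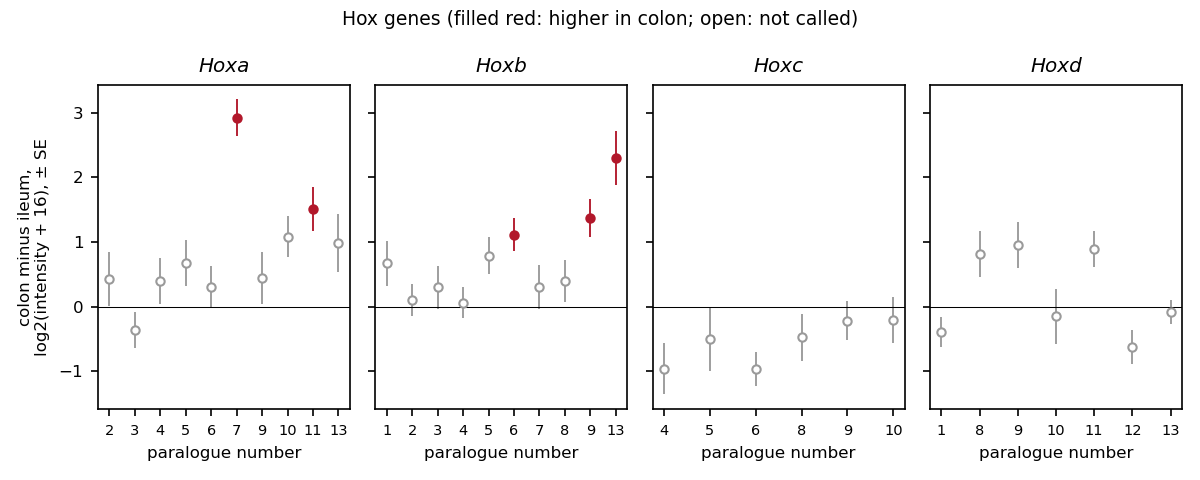
The colon minus ileum difference on log2(intensity + 16), with its standard error, for 33 Hox genes by cluster and paralogue number; filled red points are higher in the colon at adjusted p below 0.05 and open points were not called. The 5 called genes lie in the Hoxa and Hoxb clusters.

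Of 29 transcription factors with regional expression in the gut epithelium, 7 were higher and 3 lower (34.5% called, against 5.2% of all genes). The median was 0.23. Gata5, of a family tied to the small intestine, read 10.9, 9.5 and 8.9 units in the colon pools and 301, 258 and 328 units in the ileum pools (-3.59 ± 0.25 (SE), adjusted p = 2.84e-07); Gata4 was not called (61.0 and 145 units, adjusted p = 0.117), nor was Gata6. Creb3l3, a membrane-bound factor of lipid genes, fell by 2.79 (adjusted p = 1.26e-06). Tfcp2l1 read 1354, 1111 and 1213 units in the colon pools and 109.6, 87.5 and 193 units in the ileum pools (3.15 ± 0.36 (SE), adjusted p = 4.85e-05). The forkhead factors Foxa1 and Foxa2 rose by 1.52 and 2.10, and Ehf by 1.92, and Klf4, a factor of goblet cells and the surface epithelium, by 1.05. Hnf4g, an enterocyte nuclear receptor, fell by 1.31. The call of Hnf4g was lost without ileum 1 (adjusted p = 0.0589). With high-18S samples only it was at adjusted p = 0.179. Cdx2, which both segments need for intestinal identity, read 187 units in the colon and 217 in the ileum and was not called. Cdx1 and the Notch target Hes1 rose by 0.63 and 0.67. The call of Cdx1 was lost whichever pool was left out (adjusted p up to 0.216) and that of Hes1 whichever pool was left out (adjusted p up to 0.16). Hes1 was also lost with the 18S block (adjusted p = 0.0507) and with high-18S samples only (0.118).

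Among 31 nuclear receptors, 1 was higher and 3 lower (12.9% called, against 5.2% of all genes). Pparg, the receptor for fatty acids known from fat cells and the colonic surface, read 228, 233 and 352 units in the colon pools and 31.2, 48.7 and 29.8 units in the ileum pools (2.44 ± 0.33 (SE), adjusted p = 0.000259); the fat cell marker Adipoq was also higher in the colon, and its part was not tested. Nr1h3, a sterol receptor, read 156, 186 and 138 units in the colon pools and 442, 452 and 406 units in the ileum pools (-1.36 ± 0.21 (SE), adjusted p = 0.00112), and Esrra fell by 0.65. Thra, a thyroid hormone receptor, fell by 0.67. The call of Thra was lost without colon 1, colon 2, colon 3, ileum 2 or ileum 3 (adjusted p up to 0.134). The receptors Nr1i2 and Vdr were not called, and Vdr read 731 and 671 units. Hnf4a, which was not called, and Hnf4g were counted with the transcription factors above.

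Cytochromes P450 changed in both directions: of 32, 3 were higher and 6 lower (28.1% called, against 5.2% of all genes, median -0.11). Cyp2d10 read 371, 305 and 269 units in the colon pools and 4.4, 5.4 and 4.9 units in the ileum pools (3.97 ± 0.29 (SE), adjusted p = 4.41e-07), though P450 probe sets may read close relatives. Cyp4f14 read 1531, 1213 and 2181 units in the colon pools and 13882, 14475 and 13353 units in the ileum pools (-3.11 ± 0.25 (SE), adjusted p = 6.70e-07). Cyp3a11 and Cyp3a25, of the main drug-oxidising family, fell, with differences of -3.18 and -2.08, and Cyp4v3 fell by 3.52, with ileum 1 high at 4013, 1369.6 and 1009.8 units in the ileum pools. Cyp2e1 rose by 1.13, and Cyp2b10 and Cyp4f16 fell, with differences of -1.13 and -1.29. The call of Cyp2e1 was lost without colon 1, colon 2, colon 3, ileum 1 or ileum 3 (adjusted p up to 0.0914), that of Cyp2b10 without colon 1 or ileum 2 (adjusted p up to 0.0619) and that of Cyp4f16 without colon 1, colon 2, colon 3, ileum 2 or ileum 3 (adjusted p up to 0.223). Among the 18S alternatives, the block gave Cyp2e1 at adjusted p = 0.169 and Cyp4f16 at 0.141, and high-18S samples only gave Cyp2e1 at adjusted p = 0.16. The lower count was 4 without colon 1 or ileum 2.

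Of 51 conjugating and other detoxification enzymes, 12 were higher and 5 lower (33.3% called, against 5.2% of all genes, median 0.27). The sulfotransferase Sult1a1 read 482, 372 and 522 units in the colon pools and 6.4, 61.2 and 9.5 units in the ileum pools (3.73 ± 0.43 (SE), adjusted p = 6.00e-05), and Sult1c2 and Papss2, which makes the sulfate donor, rose by 2.59 and 2.08. Another sulfotransferase, Sult2b1, read 245, 219 and 224 units in the colon pools and 1104, 1167 and 1209 units in the ileum pools and was lower (-2.26 ± 0.20 (SE), adjusted p = 3.35e-06). The aldo-keto reductases Akr1b8 and Akr1c13 rose by 2.35 and 1.41, the carboxylesterase Ces1d by 3.03 and the alcohol dehydrogenase Adh1 by 1.97, while Adh4 and the mitochondrial Aldh1b1 fell, with differences of -2.04 and -1.95. Glutathione S-transferases divided: Gstm1 and Gstm2 rose by 1.46 and 1.73, the microsomal Mgst3 rose by 0.79 and Mgst1 fell by 1.08, and Gstp1 read 5670.3 and 5763 units and was not called. Akr1c19 and Aldh1a1 rose by 1.89 and 1.14 and Ephx2 fell by 1.06. The call of Akr1c19 was lost without colon 3, ileum 1 or ileum 2 (adjusted p up to 0.11), that of Aldh1a1 without colon 2, colon 3 or ileum 2 (adjusted p up to 0.0668), that of Gstm2 without colon 1, colon 3, ileum 1 or ileum 2 (adjusted p up to 0.133), that of Mgst3 without colon 2, colon 3, ileum 2 or ileum 3 (adjusted p up to 0.114), that of Mgst1 without colon 1, colon 2, colon 3, ileum 1 or ileum 2 (adjusted p up to 0.0699) and that of Ephx2 without colon 2, colon 3 or ileum 1 (adjusted p up to 0.0825). The 18S block put Ephx2 at adjusted p = 0.119, and restriction to high-18S samples put Ephx2 at adjusted p = 0.129 and Gstm1 at 0.0572. Without colon 3 or ileum 2 the higher count was 8, and without colon 2 or ileum 1 the lower count was 3. Of 32 ABC transporters, 1 was higher and 2 lower, all named above (9.38% called, against 5.2% of all genes). Of 23 genes of cholesterol synthesis and uptake, limma called 0, with 6 at an unadjusted p below 0.05, and the median was -0.23. The lowest adjusted p was that of Mvk (296 and 533 units, 0.175).

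Of 15 arginine, ornithine and urea genes, which handle nitrogen in the enterocyte, 4 were lower and 0 higher. The share called was 26.7%, against 5.2% of all genes. Cps1, carbamoyl phosphate synthetase, read 89.1, 99.8 and 48.3 units in the colon pools and 2784, 2573 and 2913 units in the ileum pools (-4.91 ± 0.21 (SE), adjusted p = 1.04e-09). Arg2, the mitochondrial arginase, and Oat, ornithine aminotransferase, fell, with differences of -3.25 and -1.97 (adjusted p = 1.18e-07 and 6.53e-06) and Otc, which makes citrulline, fell by 1.48. Purine breakdown had 4 of 15 lower and 1 higher (33.3% called, against 5.2% of all genes). Pnp, purine nucleoside phosphorylase, read 488, 408 and 435 units in the colon pools and 4338, 2669.8 and 2239.9 units in the ileum pools (-2.70 ± 0.30 (SE), adjusted p = 4.66e-05), and Xdh, xanthine dehydrogenase, fell by 1.77. Ada, adenosine deaminase, was uneven in the colon, at 29.0, 494 and 188 units against 1049, 1293 and 1062 in the ileum (-2.77 ± 0.60 (SE), adjusted p = 0.0156). Gda fell by 1.45 and Entpd5 rose by 0.85. The call of Ada was lost without ileum 2 (adjusted p = 0.0617), that of Gda without colon 1, colon 3, ileum 1 or ileum 3 (adjusted p up to 0.103) and that of Entpd5 without colon 2, colon 3, ileum 1 or ileum 2 (adjusted p up to 0.15). In either 18S alternative, 2 of the 4 falls were called: the block put Ada at adjusted p = 0.0918, Gda at 0.149 and Entpd5 at 0.0505, and high-18S samples alone gave Ada at adjusted p = 0.164, Gda at 0.278 and Entpd5 at 0.106.

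Of 50 respiratory chain subunits, 3 were higher (6.0%, against 5.2% of all genes), with a median of 0.17. Uqcrc2, Ndufa7 and Ndufs3 rose by 1.02, 0.64 and 0.64, and the count was 0 without ileum 3. The call of Uqcrc2 was lost without colon 2 or ileum 3 (adjusted p up to 0.0538), that of Ndufa7 without colon 1 or ileum 3 (adjusted p up to 0.0768) and that of Ndufs3 without colon 1, colon 2, colon 3, ileum 1 or ileum 3 (adjusted p up to 0.113). With the 18S block, Uqcrc2 at adjusted p = 0.0581 and Ndufs3 at 0.0652 missed the threshold, as did Uqcrc2 at adjusted p = 0.163, Ndufa7 at 0.0999 and Ndufs3 at 0.184 among high-18S samples alone. Of 21 genes of ketone synthesis and fatty acid oxidation, 1 was higher and 1 lower (9.52% called): Acads, the short-chain acyl-CoA dehydrogenase, read 1067, 1016 and 1323 units in the colon pools and 549, 487 and 523 units in the ileum pools (1.10 ± 0.21 (SE), adjusted p = 0.00542), and the peroxisomal thiolase Acaa1a fell by 0.65. The call of Acaa1a was lost whichever pool was left out (adjusted p up to 0.162). The 18S alternatives put it at adjusted p = 0.198 (block) and 0.0655 (high-18S samples only). Among 22 antioxidant enzymes, Lpo was higher, and Gpx2, the epithelial glutathione peroxidase, and Gsr were lower (13.6% called). Gpx2 read 3576, 3359 and 2718 units in the colon pools and 7182, 10337 and 6241 units in the ileum pools (-1.27 ± 0.24 (SE), adjusted p = 0.0061). Gsr, glutathione reductase, fell by 0.95. The call of Gsr was lost without colon 2 or ileum 2 (adjusted p up to 0.0896).

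Of 25 smooth muscle contractile genes, 11 were higher and 0 lower (44.0%, against 2.47% higher over all genes), 14 were not called, and the median was 0.84. Cnn1, calponin, read 3680.1, 3924 and 4476 units in the colon pools and 959, 1052 and 1030.2 units in the ileum pools (1.97 ± 0.16 (SE), adjusted p = 1.19e-06). Tagln, transgelin, read 4319, 5034 and 5299 units in the colon pools and 1409, 1277 and 1469 units in the ileum pools (1.80 ± 0.17 (SE), adjusted p = 9.03e-06). The actins Acta2 and Actg2 rose by 1.42 and 1.33 (adjusted p = 0.00051 and 0.00073) and Synm, an intermediate filament protein, by 1.26. Myh11, smooth muscle myosin, rose by 1.64, and Smtn, Cald1, Csrp1, Tpm1 and Mylk by 2.30, 1.43, 1.12, 1.09 and 0.60. The call of Myh11 was lost without colon 2 or ileum 2 (adjusted p up to 0.0617), that of Smtn without colon 1, colon 2, colon 3 or ileum 2 (adjusted p up to 0.101), that of Cald1 without colon 3 (adjusted p = 0.0518), that of Csrp1 without colon 1, colon 3 or ileum 2 (adjusted p up to 0.0651), that of Tpm1 without colon 3 or ileum 2 (adjusted p up to 0.0622) and that of Mylk without colon 1, colon 2, colon 3, ileum 1 or ileum 2 (adjusted p up to 0.106). The count was 6 without colon 3 or ileum 2, 12 with a block for the 18S class, 13 with high-18S samples only and 8 after centring arrays on their medians. Des, desmin, read 519 and 325 units (adjusted p = 0.0662). The 4 smooth muscle markers summed to 14774 to 18200 units in the colon pools and 5405 to 6865 in the ileum pools.

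Cells within the wall were measured beside it. Ano1, the chloride channel of the pacemaker cells of Cajal, read 862, 902 and 698 units in the colon pools and 151, 119 and 95.7 units in the ileum pools (2.61 ± 0.29 (SE), adjusted p = 2.45e-05). Kit, their receptor, rose by 1.01. The call of Kit was lost whichever pool was left out (adjusted p up to 0.187). Its call was also lost with the 18S block (adjusted p = 0.153) and with high-18S samples only (0.118). Of 30 genes of enteric neurons and glia, 4 were higher and 0 lower (13.3% called, against 5.2% of all genes, median 0.36). Penk, the enkephalin precursor, read 417, 466 and 368 units in the colon pools and 95.6, 116 and 98.4 units in the ileum pools (1.86 ± 0.21 (SE), adjusted p = 5.24e-05), and Snap25, a synaptic protein, rose by 1.56 at low levels (51.4 and 6.83 units). The calls of Penk and Snap25 were lost with a middle probe set. The glial filament Gfap and the neuronal Calb2 rose by 1.40 and 1.30. The call of Gfap was lost without colon 1, colon 2, colon 3, ileum 1 or ileum 3 (adjusted p up to 0.192) and that of Calb2 without colon 1, colon 2, colon 3 or ileum 2 (adjusted p up to 0.0952). Blocking on the 18S class left Gfap at adjusted p = 0.216, and high-18S samples alone left Gfap at adjusted p = 0.428, Calb2 at 0.0972 and Snap25 at 0.0761. Without colon 1 or colon 2, and with high-18S samples only, the count was 2. Of 50 collagens and matrix proteins, 5 were higher and 0 lower (10.0% called, against 5.2% of all genes, median 0.33). Postn, periostin, read 288, 227 and 301 units in the colon pools and 78.0, 59.1 and 96.4 units in the ileum pools (1.63 ± 0.29 (SE), adjusted p = 0.0036), and Dcn, decorin, rose by 0.83 (adjusted p = 0.00376). The fibrillar collagens Col1a1, Col1a2 and Col3a1 were not called; Col1a1 read 543 and 409.8 units. Timp3, Sparcl1 and Sparc rose by 1.15, 1.07 and 0.92. The call of Timp3 was lost without colon 1 (adjusted p = 0.0671), that of Sparcl1 without colon 1 or colon 2 (adjusted p up to 0.0556) and that of Sparc without colon 1, colon 2 or ileum 3 (adjusted p up to 0.0821). Among the 18S alternatives, the block gave Sparc at adjusted p = 0.0554, and high-18S samples only gave Sparc at adjusted p = 0.101 and Timp3 at 0.0521. Without colon 1 the count was 2. Smooth muscle genes were higher in the same pools, and the part of muscle content in these values was not tested.

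Of 10 adipocyte genes, 2 were higher and 1 lower (30.0% called, against 5.2% of all genes): Adipoq, adiponectin, read 539, 393 and 401 units in the colon pools and 124, 47.1 and 53.1 units in the ileum pools (2.43 ± 0.35 (SE), adjusted p = 0.000543), Retn, resistin, rose by 1.80 and Lipe, a lipase of fat stores, fell by 1.55. With high-18S samples only, Retn was at adjusted p = 0.0563, and with a block for the 18S class Lipe was at 0.0861; a second probe set of Retn was not called. Of 17 endothelial genes only Madcam1, the vessel address for gut-homing lymphocytes, was called (5.88%); it read 51.7, 31.2 and 14.4 units in the colon pools and 284, 214 and 172 units in the ileum pools (-2.36 ± 0.40 (SE), adjusted p = 0.0027), and with high-18S samples only it was not called (adjusted p = 0.0973). Of 18 squamous epithelial genes limma called 0, with 1 at an unadjusted p below 0.05. Of 20 skeletal muscle genes 1 was higher (5.0%), Tnni1, at 710.3 ± 32.4 units against 125 ± 27.7 (SD, n = 3), while Acta1, Ckm and Mylpf were not called. Of 18 exocrine pancreas genes 1 was higher and 1 lower (11.1% called), Cela1 and Clps, by 1.29 and -0.93. The call of Clps was lost without colon 3, ileum 1 or ileum 2 (adjusted p up to 0.111). The 18S block put Cela1 at adjusted p = 0.0705, and restriction to high-18S samples put Cela1 at adjusted p = 0.143 and Clps at 0.0746. Of 14 gastric and Brunner gland genes 1 was higher (7.14%), Muc1, a membrane mucin of many epithelia, by 2.11.

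**Figure D5:**
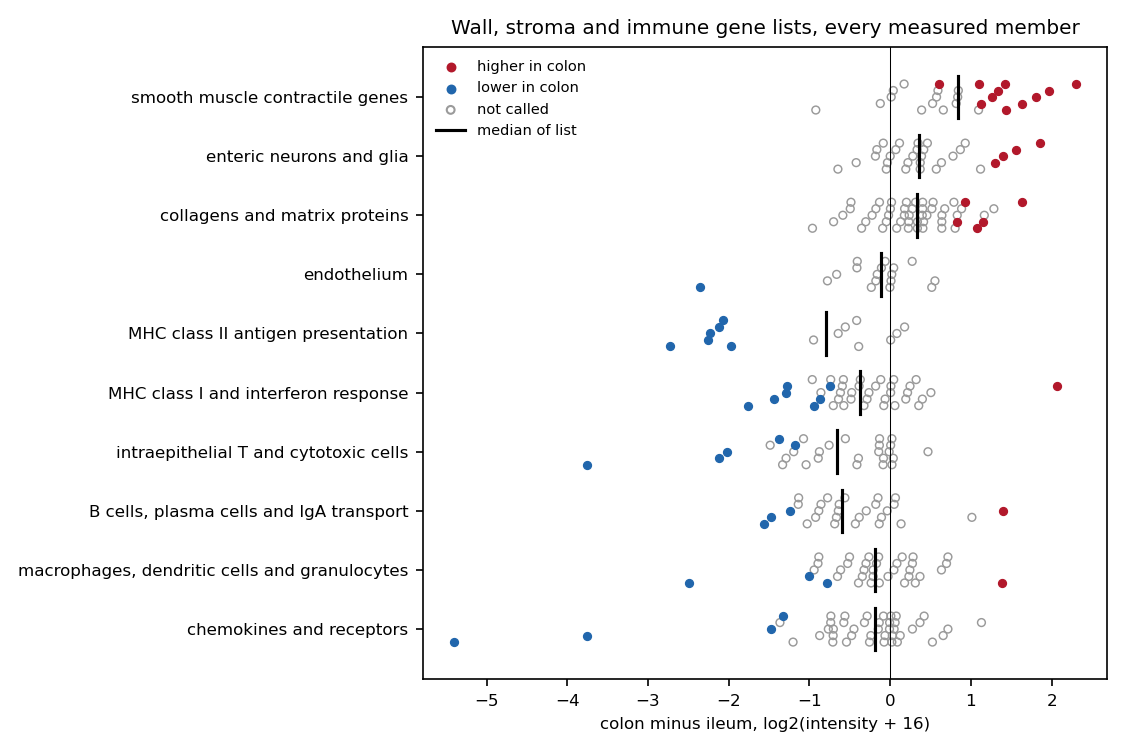
Every measured member of 10 lists of wall, stroma and immune genes as a point at its colon minus ileum difference on log2(intensity + 16), coloured where called at adjusted p below 0.05 and open where not; black bars are list medians. Smooth muscle members lie mostly right of 0 and MHC class II members form a called group near -2.

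Of 14 MHC class II genes, which load and show peptides to helper T cells, 6 were lower, 0 higher and 8 not called. The share called was 42.9%, against 5.2% of all genes, and the median was -0.80. The count of 6 held without each pool and with a block for the 18S class. With a middle probe set by difference in place of the brightest, H2-Aa and H2-Eb1 lost their calls. H2-Ab1 read 541, 380.0 and 307 units in the colon pools and 3418, 2339.8 and 2543 units in the ileum pools (-2.73 ± 0.21 (SE), adjusted p = 9.02e-07). Cd74, the invariant chain, read 2419, 1849 and 1381 units in the colon pools and 9482, 8889.5 and 7666 units in the ileum pools (-2.23 ± 0.20 (SE), adjusted p = 3.95e-06). H2-Aa, H2-Eb1, H2-DMa and H2-DMb1 fell, with differences of -2.12, -2.07, -1.97 and -2.26. The class II activator Ciita read 63.1 and 137 units and was not called (adjusted p = 0.181). Of 39 MHC class I and interferon genes, 7 were lower, 1 was higher and 31 were not called (median -0.37). In this list 20.5% were called, against 5.2% of all genes. The immunoproteasome subunits Psmb9, Psmb8 and Psmb10 fell, with differences of -1.76, -1.45 and -0.86 (adjusted p = 9.75e-05, 0.000477 and 0.00134), and Isg20 rose by 2.07. The peptide carriers Tap1 and Tap2, Ifi35 and H2-D1 fell, with differences of -1.27, -0.94, -1.29 and -0.75; class I genes are near copies, so H2-D1 is uncertain. The call of Tap2 was lost without colon 1, colon 2, colon 3, ileum 1 or ileum 2 (adjusted p up to 0.177) and that of H2-D1 without colon 3 or ileum 2 (adjusted p up to 0.0776). Blocking on the 18S class left Tap1 at adjusted p = 0.0713 and Tap2 at 0.132, and high-18S samples alone left Ifi35 at adjusted p = 0.0975 and Tap2 at 0.22. B2m was not called (4516 and 5909.8 units), nor were the interferon-induced Mx1, Isg15 and Irf7. Without colon 3 the lower count was 5, as it was in both 18S alternatives.

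Of the lymphocyte genes that were called all but 1 were lower. Of 28 genes of intraepithelial T and cytotoxic cells, 5 were lower and 0 higher (17.9% called, against 5.2% of all genes). Their median was -0.66, but 16 were under the array median in both segments. Ccl5, a chemokine of cytotoxic cells, read 104, 46.5 and 22.4 units in the colon pools and 1125, 600.5 and 979.9 units in the ileum pools (-3.75 ± 0.32 (SE), adjusted p = 2.08e-06), and Gzma, a granzyme, 21.8, 23.2 and 22.6 units in the colon pools and 234, 149 and 97.1 units in the ileum pools (-2.12 ± 0.32 (SE), adjusted p = 0.000952). Zap70 and Cd7 fell, with differences of -2.02 and -1.38. Itgae, the integrin of intraepithelial lymphocytes, fell by 1.18. The call of Itgae was lost whichever pool was left out (adjusted p up to 0.146). Among high-18S samples alone, the count was 3, with Zap70 at adjusted p = 0.0696 and Itgae at 0.19. Cd3e and Cd8a were dim and not called (30.6 and 115 units, 26.3 and 75.1 units). Of 28 B cell and plasma cell genes, 3 were lower and 1 higher (14.3% called, against 5.2% of all genes, median -0.60). Mzb1, of plasma cells, and Cd79b, of the B cell receptor, fell, with differences of -1.57 and -1.24, and Cxcr5, which guides B cells into follicles, fell by 1.48. The call of Cxcr5 was lost without colon 2, colon 3, ileum 1, ileum 2 or ileum 3 (adjusted p up to 0.136). Blnk, a signalling adaptor of B cells, was higher, 706, 806 and 776 units in the colon pools and 324, 253 and 267 units in the ileum pools (1.39 ± 0.16 (SE), adjusted p = 4.27e-05). Igha and the IgA carrier Pigr were bright and not called; Pigr read 13365 and 13596 units. The lower count was 2 without colon 2, colon 3, ileum 1 or ileum 3, and 1 with high-18S samples only, where the test put Cd79b at adjusted p = 0.199 and Cxcr5 at 0.113; the 18S block put Cd79b at adjusted p = 0.0535. The 4 measured B cell and Peyer patch markers summed to 387 to 587 units in the colon pools and 653 to 941 in the ileum pools, and none of the 4 was called. The part of lymphoid follicles in the class II and B cell values was not tested.

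Ccl25, the chemokine that draws lymphocytes with the receptor Ccr9 to the small intestine, read 59.2, 69.0 and 19.4 units in the colon pools and 3159.7, 2160.4 and 2463 units in the ileum pools (-5.40 ± 0.30 (SE), adjusted p = 2.45e-08). It was the largest of 4 falls among 44 chemokines and receptors, with 0 rises (9.09% called, against 5.2% of all genes). Cx3cl1, a membrane-bound chemokine of the epithelium, read 276, 467 and 334 units in the colon pools and 1056, 979 and 709.7 units in the ileum pools (-1.32 ± 0.21 (SE), adjusted p = 0.00151). Ccl28, known for drawing IgA cells to the colon, was not called (408 and 289 units, adjusted p = 0.736). Of 36 genes of macrophages, dendritic cells and granulocytes, 3 were lower, Lyz2, Itgax and Csf1r, and 1, the mast cell tryptase Tpsb2, higher. The share called was 11.1%, against 5.2% of all genes. Itgax and Csf1r fell, with differences of -1.01 and -0.79 and Tpsb2 rose by 1.38. The call of Itgax was lost without colon 1, colon 3, ileum 1 or ileum 2 (adjusted p up to 0.125), that of Csf1r without colon 1, colon 2, colon 3, ileum 1 or ileum 3 (adjusted p up to 0.153) and that of Tpsb2 without colon 2, colon 3, ileum 1 or ileum 3 (adjusted p up to 0.182). Among the 18S alternatives, the block gave Csf1r at adjusted p = 0.174 and Tpsb2 at 0.187, and high-18S samples only gave Csf1r at adjusted p = 0.252 and Tpsb2 at 0.356. The lower count was 1 without colon 1, colon 3 or ileum 1. C1qa, Cd68 and Adgre1 were not called.

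Of 30 keratins and other structural genes of the epithelium, 3 were higher and 6 lower (30.0% called, against 5.2% of all genes). Krt8, Krt19, Krt20, Epcam and Lgals4 were not called. Krt8 read 12800 and 14396 units (adjusted p = 0.838) and Epcam 2120.4 and 1990.5 units (adjusted p = 0.935). Lgals2, a galectin, read 157, 181 and 132 units in the colon pools and 11534, 19944 and 14778 units in the ileum pools (-6.45 ± 0.20 (SE), adjusted p = 2.09e-11). Vil1, villin, the actin bundler of microvilli, read 1843, 1926 and 2159 units in the colon pools and 5608, 5452 and 5110.2 units in the ileum pools (-1.44 ± 0.15 (SE), adjusted p = 1.57e-05), and Anxa13, Cdh17, Ezr and Cdhr5 fell, with differences of -2.60, -1.06, -0.75 and -0.71. The call of Cdh17 was lost without colon 1, colon 2, ileum 1 or ileum 3 (adjusted p up to 0.093) and that of Ezr without colon 1, colon 3, ileum 1 or ileum 2 (adjusted p up to 0.1). The 18S block put Cdh17 at adjusted p = 0.137 and Ezr at 0.0552, and restriction to high-18S samples put Cdh17 at adjusted p = 0.0765. Ceacam1 and Lgals3 rose by 1.18 and 1.84. Of 21 tight junction genes 1 was lower (4.76% called, near the 5.2% of all genes), Cldn15, a cation pore of the small intestine, at 2181 ± 75.6 units in the colon and 4699 ± 373 in the ileum (SD, n = 3; -1.10 ± 0.18 (SE), adjusted p = 0.00137).

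Of 54 Wnt pathway and crypt genes, 3 were higher and 1 lower (7.41% called, against 5.2% of all genes). Olfm4, a marker of small intestinal crypt base cells, read 39.8, 15.1 and 72.2 units in the colon pools and 3287, 1706 and 2862 units in the ileum pools (-5.57 ± 0.33 (SE), adjusted p = 2.53e-08). Prom1 read 1760, 1929.5 and 1903 units in the colon pools and 372, 289.5 and 361 units in the ileum pools (2.40 ± 0.17 (SE), adjusted p = 3.39e-07). The Wnt receptors Lrp6 and Fzd10 rose by 1.17 and 1.61. The call of Lrp6 was lost without colon 1, colon 3 or ileum 2 (adjusted p up to 0.0767) and that of Fzd10 without colon 1, colon 2, colon 3, ileum 1 or ileum 2 (adjusted p up to 0.131). The call of Fzd10 was also lost with the 18S block (adjusted p = 0.0992) and with high-18S samples only (0.134). The higher count was 1 without colon 1, colon 3 or ileum 2. Lgr5, the stem cell marker, was dim in both (27.1 and 41.8 units), and 29 of the 54 were under the array median in both segments. Of 58 cell cycle genes 1 was called (1.72%), and this gene, Birc5, fell by 0.78. The call of Birc5 was lost without colon 1, colon 2, ileum 1, ileum 2 or ileum 3 (adjusted p up to 0.147). The 18S alternatives put it at adjusted p = 0.107 (block) and 0.245 (high-18S samples only). Mki67, the proliferation marker, read 92.0 and 145 units and was not called. Of 25 immediate early genes 1 was higher (4.0%), Dusp1, by 1.10. The call of Dusp1 was lost without colon 2 (adjusted p = 0.0611). Among high-18S samples alone it was at adjusted p = 0.0583. Of 35 heat shock proteins and chaperones limma called 0, with 3 at an unadjusted p below 0.05.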

How the data were processed

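RNA of 3 pools of 10 mice per segment was hybridised to array sets A, B and C, and 12422, 12411 and 11868 probe sets were tested after 198 control probe sets were left out. The authors deposited linear intensity values, scaled to a common mean per array as the values show; the software is not given in the sources used here, and no detection calls or scanner files were used. The limma package (3.58.1, under R 4.3.3) was applied to log2(intensity + 16) of each array set separately, with 1 mean per segment over 12 arrays and an intensity trend; the scripts were tested on simulated data. The labels do not say whether pools of equal number came from the same mice.

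Of the probe sets, 29131 had 1 gene symbol in the platform annotation, 724 several and 6846 none. A gene was represented by its brightest probe set on set A, else B, else C. Named were, among called genes, 15 rises and 15 falls ranked by size, of at least 2-fold, without overlap and with the higher segment above the array median, leaving out unnamed transcripts (RIKEN, clone and similar symbols); up to 5 members of each of 48 gene lists by adjusted p; the marker genes; and all Hox genes. Further members are named after their values were seen. The members and lists were chosen with earlier results of these data known. Promoter sequences are from RefSeq (GRCm38.p6). The number of pools limits the precision, and p-values measure the spread between pools. Alternatives changed the scaling, offset, filter, intensity trend, adjustment, probe set, samples, 18S class and pairing.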

Additional observations from a re-analysis of the deposited data

How the results depend on the processing

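Over the scaling, offset, filter, sample and adjustment alternatives, called probe sets numbered 1030 (arrays centred on their medians) to 1351 against 1202. Without the intensity trend they numbered 972, and 164 of 179 named calls held. Leaving out 1 pool gave 826 to 933, with 366 (without colon 3) to 453 higher in the colon against 570, and 456 to 515 lower against 632. Of 259 called genes, 190 kept their call without each of the 6 pools. These 259 hold the list members, the markers, the largest rises and falls and the groups chosen after their values were seen. Genes picked for large differences raise the share kept. Centring on the medians left 169 of 179 named calls, the 18S block 156 and high-18S samples only 138. With the replicate number as a block, 1138 probe sets were called, 533 higher and 605 lower, 1085 of them shared, and 173 of the 179 named calls held; deviations of equal-numbered pools correlated at 0.037 to 0.185, not all over 0.1, although each colon pool correlated best with the ileum pool of its number, a hint from the data and not from the design.

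For genes with several probe sets the middle ones by difference were tried. They left 142 or 145 of 179 named calls and turned the sign, without a call, for these genes: Aqp1 0.715, Arg2 0.411, Car3 -0.457, Cubn 0.449, Enpep 0.401, Fabp1 0.495, Lgals3 -0.193, Lyz1 0.349, Lyz2 0.053, Mgst3 -0.019, Ndufs3 -0.082, Oat 0.846, Psmb8 0.565, Retn -1.008, Sult1a1 -0.021, Tpm1 -0.095 and Wfdc2 -0.032. The cause was not tested. Dim probe sets limit the array data: in 108 of the genes higher and 118 of those lower in the colon, the lower segment lay under the array median.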

Other observations

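Further groups were chosen after their values were seen, so their counts describe these pools and test nothing beyond them. Over all genes 5.2% were called, 2.47% higher and 2.73% lower. Of 8 genes of sulfide oxidation and thiol metabolism, 5 were higher in the colon and 1 lower. Ethe1, the mitochondrial persulfide dioxygenase, read 9886, 13269 and 10113 units in the colon pools and 1358, 1614 and 1402 units in the ileum pools (2.90 ± 0.18 (SE), adjusted p = 7.99e-08). Sqor, sulfide quinone oxidoreductase, read 1645, 1797 and 1965 units in the colon pools and 272, 203 and 353 units in the ileum pools (2.67 ± 0.22 (SE), adjusted p = 1.66e-06), and Tst, a thiosulfate sulfurtransferase, 1106, 1049.7 and 1139.6 units in the colon pools and 127, 146 and 180.0 units in the ileum pools (2.75 ± 0.21 (SE), adjusted p = 6.89e-07). Cbs, which can make sulfide from cysteine, rose by 3.04, and Selenbp1, which oxidises methanethiol, by 3.85. Suox, sulfite oxidase, the last step to sulfate, was lower in the colon: 354, 335 and 431 units in the colon pools and 4584, 3768 and 5052 units in the ileum pools (-3.52 ± 0.22 (SE), adjusted p = 3.47e-08). In none of these 6 genes did the segments overlap, which holds for nearly all called genes. Cth and Mpst were not called (0.984 and 0.233, adjusted p).

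Peptidases of the cytosol, which finish the digestion of absorbed small peptides, were lower in 4 of 8 cases (2.73% over all genes). Pepd, prolidase, read 118, 124 and 119.8 units in the colon pools and 1089, 836 and 1445 units in the ileum pools (-3.02 ± 0.19 (SE), adjusted p = 1.01e-07), and Xpnpep1, Cndp2 and Lap3 fell, with differences of -2.59, -2.48 and -1.58; with high-18S samples only, Lap3 was at adjusted p = 0.0904. Of 11 genes of gluconeogenesis and hexose handling, 5 were lower and 1 higher (5.2% called over all genes). Fbp1, fructose bisphosphatase, read 22.6, 31.6 and 43.9 units in the colon pools and 398, 394 and 340.0 units in the ileum pools (-3.03 ± 0.18 (SE), adjusted p = 4.82e-08), Gpd1 and Pklr fell, with differences of -1.98 and -1.27, G6pc and its carrier partner Slc37a4 fell, with differences of -1.58 and -0.96, and hexokinase Hk2 rose by 1.26. The call of G6pc was lost without colon 1, colon 3, ileum 1 or ileum 2 (adjusted p up to 0.102), that of Slc37a4 whichever pool was left out (adjusted p up to 0.142) and that of Hk2 without colon 1, colon 2 or ileum 2 (adjusted p up to 0.0758). Restriction to high-18S samples put G6pc at adjusted p = 0.0711, and the 18S block put Slc37a4 at adjusted p = 0.265. Of 11 glandular kallikreins, serine proteases with near-identical sequences, 4 were higher (2.47% over all genes). Klk1, Klk1b1, Klk1b5 and Klk1b22 rose by 2.62, 2.55, 2.59 and 2.10. Their probe sets may read each other, so the single members are uncertain.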
